A study of Mus musculus with 18 samples.

Results

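The 41 genes described here make up the antioxidant defence of the kidney and its control by the transcription factor NRF2. They were chosen by name, for their roles in glutathione and thioredoxin metabolism, removal of superoxide and peroxide, conjugation, NADPH supply and NRF2 control. No rule on their values was used, though earlier results of these data were known when they were chosen. All 41 were among the 19545 genes of the deposited expression table, and 39 were among the 12385 genes expressed highly enough to be tested. RNA sequencing was done on kidneys of ICR mice aged 10 weeks, in 18 samples that form 6 groups of 3. HS_AOS mice had a high fat diet and STZ (streptozotocin, a toxin of the insulin-secreting beta cells) and were treated with 10 mg/kg of AOS, an agent whose full name is not in the labels. HS_AOS_FMT mice had the diet and STZ with an FMT (faecal microbiota transplantation) labelled AOS 10 mg/kg, and HS_control_FMT mice had the diet and STZ with an FMT labelled control. HS mice had the diet and STZ alone, AOS mice had AOS at 10 mg/kg without diet or STZ, and control mice are labelled control. The series asks how FMT acts on kidneys damaged by the diet and STZ. The donors of the transplants, the time on diet and the sex of the mice are not given in the labels. Whether the 3 samples of a group are 3 mice is not stated, so every p-value below measures only the spread between these samples, which may be technical.

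NRF2, encoded by Nfe2l2, is held in the cytoplasm and marked for destruction by KEAP1. Oxidants and electrophiles modify KEAP1, after which NRF2 accumulates, enters the nucleus and pairs with small MAF proteins on antioxidant response elements of its target genes. Those targets make glutathione, recycle thioredoxin, conjugate reactive compounds and supply NADPH, and in the kidney they are known for protecting the tubule, a tissue rich in mitochondria.

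Levels are FPKM (fragments scaled to the transcript's length and the library's total), given per library or as mean ± SD of 3 libraries. Each difference between groups is one of log2(FPKM + 1), with its standard error (SE); adding 1 shrinks the change of a gene at low FPKM. A gene is said to have risen or fallen where limma's p-value, adjusted over all 12385 genes by the method of Benjamini and Hochberg, was under 0.05. Read counts were not used here. The steps between low values would put the libraries at about 9.9 to 12.3 M reads if 1 step is 1 read, which is an estimate only. RNA of a whole kidney does not tell fewer cells of a type from less RNA per cell.

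A few libraries stand apart and bear on several results. The summed FPKM of 7 proximal tubule markers was between 2819 (control 3) and 4732 (HS_AOS 2) in all 18 libraries. That of 4 thick ascending limb markers was 430 to 677.2 in HS_AOS and 695.8 to 969.9 in HS, against 1029 to 1478 in control. It was 597.7 to 1095 in HS_AOS_FMT, 836.8 to 1415 in HS_control_FMT and 850.3 to 1315 in AOS. That of 3 principal cell markers was 318.1 in control 3 and at most 187.2 in the other libraries. The part of these cell types in the results below was not tested. The summed FPKM of 8 markers of the adrenal gland, which sits on the kidney, was 390.9 in HS_AOS_FMT 2, 525.8 in HS 3 and 901.8 in control 3, against 66.69 in HS_AOS_FMT 3 and at most 7.98 in the other 14 libraries. Control 3 correlated with the other libraries at no more than 0.965, while every other library reached at least 0.982 with another (Pearson's r of log2 values over tested genes). Deviations from the mean followed the GC content of the transcript most strongly in HS_AOS 3 and HS_AOS_FMT 3 (Spearman's rho −0.592 and −0.412), against 0.208 to 0.332 in the HS libraries. Summed FPKM of 6 erythroid markers was 3241 to 4689 in HS_AOS and 3271 to 4092 in HS_AOS_FMT, against 7079 to 15540 in HS, with no marker at 0 throughout a group.

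**Figure D1:**
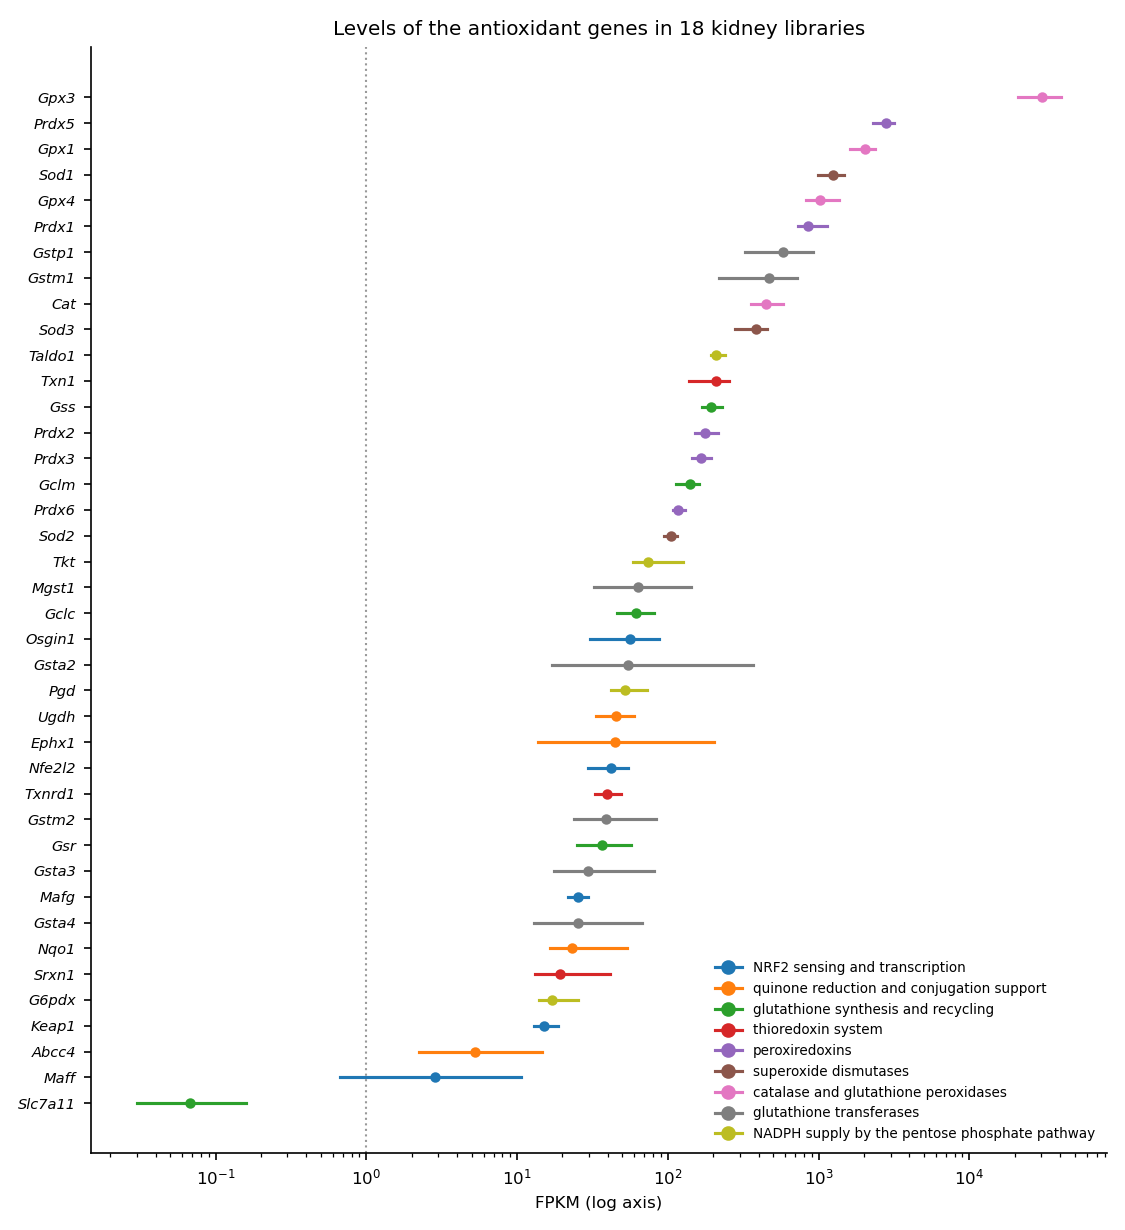
FPKM of 40 of the 41 genes on a log axis; the point is the mean over 18 libraries, the line runs from the lowest to the highest library, the colour is the role and the dotted line is 1 FPKM. Gpx3 lies highest at a mean of 30200 FPKM and Slc7a11 lowest, and Gstm3, listed at 0 in most libraries, is left out.

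The antioxidant genes covered a very wide range of levels per length of transcript. Gpx3, the secreted glutathione peroxidase that the kidney releases into plasma, had the highest mean at 30200 FPKM and ranged between 20915 and 40429 FPKM over the 18 libraries. Prdx5, a peroxiredoxin of mitochondria, peroxisomes and cytosol, had a mean of 2790 FPKM. Gpx1 (cytosolic glutathione peroxidase) averaged 2020 FPKM, Sod1 (cytosolic superoxide dismutase) 1250 FPKM and Gpx4 (the peroxidase of membrane lipids) 1020 FPKM. Enzymes that remove peroxide and superoxide thus stood above the controlling factors, of which Nfe2l2 averaged 41.8 FPKM, Keap1 15.1 FPKM and Maff 2.87 FPKM. At the other end, Slc7a11, the cystine importer, was between 0.03 and 0.16 FPKM and Gstm3, a mu class transferase, between 0 and 0.08 FPKM, and neither was tested. Reads of the similar genes Gstm1, Gstm2 and Gstm3, Gsta2 and Gsta1, and Gstp1 and Gstp2 may have been split between them, so their single values are uncertain.

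A test of any difference among the 6 groups called 3 of the 39 members, or 7.69%, against 8.21% of all tested genes. These were Osgin1 and Maff, both with an adjusted p of 0.0215, and Sod3 with 0.029. Prdx5, at 0.0524, was the next in order. Without control 3 the same test called 13 members (33.3%), when 20.4% of all tested genes were called. The 13 were Nfe2l2, Maff, Osgin1, Ephx1, Ugdh, Abcc4, Prdx2, Prdx3, Prdx5, Sod3, Gpx4, Gsta2 and Tkt. The test called 0 members without HS_control_FMT 1, when 424 genes in all were called, and Sod3 alone without HS_control_FMT 2.

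**Figure D2:**
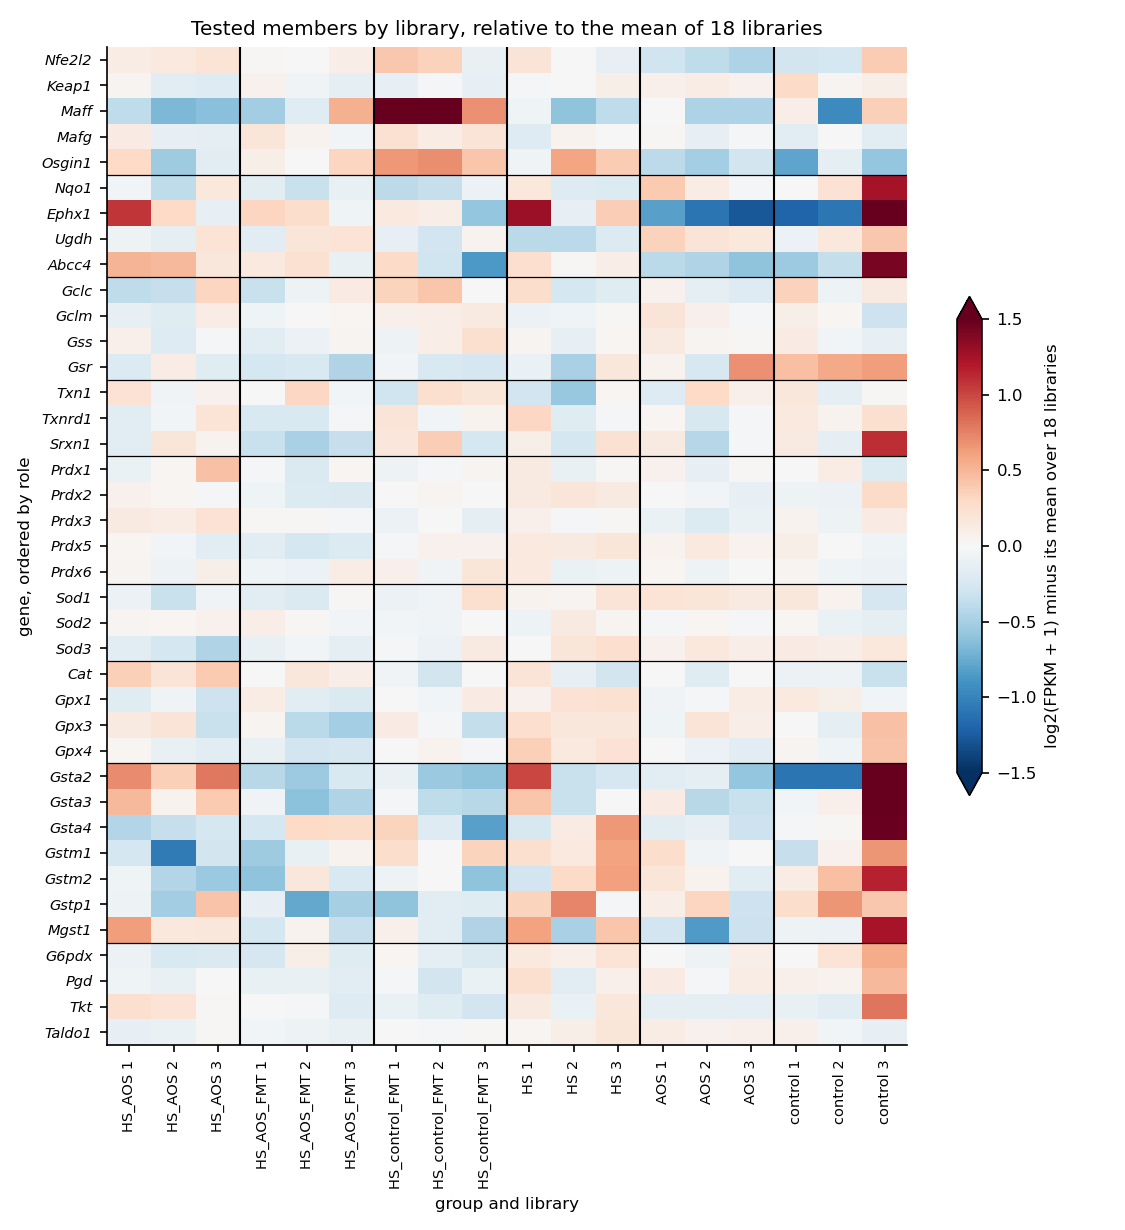
log2(FPKM + 1) of the 39 tested genes in each of the 18 libraries, minus the gene's mean over the libraries, with colours ending at −1.5 and 1.5; rows are ordered by role and black lines part the groups and the roles. Maff and Osgin1 are high in the HS_control_FMT libraries, and control 3 is the highest library in 17 of the 39 rows.

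Of the controlling genes, Maff and Osgin1 rose in the mice with the control transplant. Maff (chr15:79346621-79359078, RefSeq on GRCm38.p6, as are the positions below) encodes a small MAF protein, the partner through which NRF2 binds DNA. It was at 10.3, 10.6 and 4.21 FPKM in HS_control_FMT, against 2.11, 1.14 and 1.5 FPKM in HS and 2.47, 0.67 and 3.15 FPKM in control. It was at 1.27, 1.87 and 3.69 FPKM in HS_AOS_FMT, at 1.5, 1.04 and 1.1 FPKM in HS_AOS and at 2.24, 1.35 and 1.36 FPKM in AOS. All 3 HS_control_FMT libraries were above the other 15, although the third was well below the other two. Maff rose in HS_control_FMT relative to HS by 1.79 (SE 0.358, adjusted p = 0.0412) and relative to control by 1.61 (SE 0.358, adjusted p = 0.0245). It fell by 1.5 in HS_AOS_FMT relative to HS_control_FMT (SE 0.358, adjusted p = 0.0332). The first of these calls was lost when any 1 of 10 libraries was left out (AOS 1, 2 and 3, HS 1, 2 and 3, HS_AOS 2, HS_AOS_FMT 2, HS_control_FMT 1 and 2), with adjusted p between 0.0518 and 0.136. The second was lost without HS_control_FMT 1, HS_control_FMT 2 or control 2 (0.0572 to 0.0985), and the last without HS_AOS_FMT 1 or 2 or HS_control_FMT 1 or 2 (0.111 to 0.143). Without the 3 adrenal-rich libraries, the first and the last had an adjusted p of 0.062 and 0.0973.

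Osgin1 (chr8:119425882-119446257), a growth inhibitor induced by oxidative stress, was at 84.3, 87.1 and 71.4 FPKM in HS_control_FMT, against 30.4, 48.6 and 35.2 FPKM in control. In the other groups it was at 65.6, 36.7 and 47.3 FPKM in HS_AOS, 56.8, 53.1 and 66.9 FPKM in HS_AOS_FMT, 51.4, 80.8 and 70.0 FPKM in HS and 40.3, 37.1 and 44.1 FPKM in AOS. All HS libraries were above all control libraries, and they overlapped those of HS_control_FMT. Osgin1 rose in HS_control_FMT relative to control by 1.09 (SE 0.207, adjusted p = 0.0113). That call was kept with every single library left out, and was lost without the 3 adrenal-rich libraries (adjusted p = 0.0527) and with the compared groups alone in the fit (0.137). In HS against control its groups did not overlap either, with a difference of 0.81 (SE 0.207) and an adjusted p of 0.38. Osgin1 transcripts lie at the 94th percentile of GC content among tested genes, and Maff transcripts at the 89th. After trends with GC content and length had been removed from each library, the test over the 6 groups still called Maff and Osgin1.

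Nfe2l2 itself passed in no comparison. It was at 44.4, 45.8 and 47.7 FPKM in HS_AOS, 41.7, 41.0 and 44.2 FPKM in HS_AOS_FMT, 54.7, 52.5 and 37.9 FPKM in HS_control_FMT, 47.0, 40.9 and 37.7 FPKM in HS, 33.2, 31.5 and 29.6 FPKM in AOS, and 33.8, 34.2 and 53.9 FPKM in control. The AOS libraries were the lowest 3 of the 18, and control 3 was the second highest. Apart from control 3, every library with diet and STZ was above every library without. With control 3 left out, AOS differed from control by −0.11 (adjusted p = 0.998). Differences from control were then 0.29 in HS (adjusted p = 0.347), 0.42 in HS_AOS (0.0575), 0.30 in HS_AOS_FMT (0.189) and 0.48 in HS_control_FMT (0.0575). Keap1, between 13 and 18.6 FPKM, and Mafg, another small MAF partner, between 21.9 and 29.6 FPKM, passed in no comparison.

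Promoters of 14 members, among them Nfe2l2, Maff and Mafg but not Keap1 or Osgin1, carry letters that NRF2 and small MAF proteins are known to read. Windows of 250 bases before to 50 after the annotated start, from RefSeq on GRCm38.p6, were found for 36 of the 41 members. The core TGACNNNGC, searched on both strands, was present in a window of 14 of the 36 members (38.9%), against 14.0% of 27025 genes. The related TGAGNNNGC was searched after the Osgin1 window had been read, and was present in 8 members (22.2%) against 19.8% of genes. Osgin1 matched this form only, so its match was settled by that choice. Maff has further windows that held no match to either form. A match to either form can overlap the AP-1 site TGANTCA, which was present in 4 members (11.1%) and 8.97% of genes. Either form of the core, the one added later included, was present in 18 of the 36 members, against 30.8% of genes. The stretches below are examples from Maff and Osgin1, which rose in a comparison, and from Srxn1, Prdx1, Gstp1 and Gclm, textbook targets of the pathway. Other members with a match, among them Txnrd1, Slc7a11 and G6pdx, are not shown. Capitals mark matches to either form of the core.
Maff, chr15:79346483-79346543, plus strand: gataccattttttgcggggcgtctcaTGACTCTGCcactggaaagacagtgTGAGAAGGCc
Osgin1, chr8:119437022-119437082, plus strand: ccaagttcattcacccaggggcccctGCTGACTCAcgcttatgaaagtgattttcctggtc
Srxn1, chr2:152105453-152105513, plus strand: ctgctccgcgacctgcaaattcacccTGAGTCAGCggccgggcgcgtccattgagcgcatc
Prdx1, chr4:116685440-116685500, plus strand: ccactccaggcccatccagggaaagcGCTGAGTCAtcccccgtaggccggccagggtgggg
Gstp1, chr19:4037952-4038012, minus strand: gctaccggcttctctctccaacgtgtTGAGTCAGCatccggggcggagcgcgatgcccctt
Gclm, chr3:122245397-122245457, plus strand: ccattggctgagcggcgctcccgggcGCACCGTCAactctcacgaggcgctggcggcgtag
The capitals of Osgin1, Srxn1, Prdx1 and Gstp1 also hold an AP-1 site, while those of Maff and Gclm do not. Those 4 are the only members with an AP-1 site in a window, so the stretches shown are not typical in this. Srxn1, Prdx1 and Gstp1 have further matches, not shown, that overlap no AP-1 site. Maff and Osgin1 rose in HS_control_FMT, while Srxn1, Prdx1, Gstp1 and Gclm passed in no comparison. A match is a run of letters near an annotated start and not a measured binding site, and the windows of the other 18 members held neither form. Among those 18 are Keap1, Nqo1, Ephx1, Gsta2, Cat and Prdx5, and no window was found for Sod3.

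The classical targets of quinone reduction and conjugation did not pass where Maff and Osgin1 rose. Nqo1, the NADPH quinone reductase most often used to read NRF2 activity, averaged 18.1 ± 2.24 FPKM in HS_control_FMT, 20.9 ± 3.22 FPKM in HS and 33.7 ± 17.4 FPKM in control (SD, n = 3 each). Its control mean rests on control 3 at 53.7 FPKM, next to 21.9 and 25.7 FPKM in control 1 and 2. Ugdh, which makes the UDP-glucuronic acid used in glucuronidation, was at 42.2, 40.1 and 51.5 FPKM in HS_AOS, 39.4, 50.5 and 51.4 FPKM in HS_AOS_FMT and 40.8, 36.2 and 46.3 FPKM in HS_control_FMT. It was at 33.5, 33.3 and 38.4 FPKM in HS, 56.9, 50.8 and 49.8 FPKM in AOS and 41.7, 49.8 and 59.4 FPKM in control. HS libraries were below all control and all HS_AOS_FMT libraries, with differences of −0.50 for HS against control (SE 0.139, adjusted p = 0.466) and 0.41 for HS_AOS_FMT against HS (SE 0.139, adjusted p = 0.14). With the GC and length trend removed, the second was 0.25 (adjusted p = 0.404). Ephx1, the microsomal epoxide hydrolase, was between 22.8 and 85.7 FPKM in the 12 libraries with diet and STZ, and at 19.2, 15.7 and 13.7 FPKM in AOS and 14.5, 15.8 and 202.1 FPKM in control. Apart from control 3, every library with diet and STZ was above every library without. Abcc4, an exporter of conjugates, was between 2.24 and 7.37 FPKM in the 12 libraries with diet and STZ, 3.42, 3.28 and 2.87 FPKM in AOS and 3.03, 3.59 and 14.7 FPKM in control. Neither passed with all libraries, and without control 3 both were called in HS_AOS relative to control.

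None of the genes of glutathione synthesis passed in any comparison. Gclc and Gclm, the catalytic and modifier subunits of glutamate-cysteine ligase, ranged between 46.3 and 81.1 FPKM and between 113 and 160.7 FPKM over the 18 libraries. Gss, glutathione synthetase, ranged between 167.9 and 228.3 FPKM. Gsr, which reduces oxidised glutathione with NADPH, was at 30.5, 38.1 and 31.1 FPKM in HS_AOS, 29.3, 30.1 and 25.6 FPKM in HS_AOS_FMT, 34.2, 30.1 and 29.5 FPKM in HS_control_FMT and 32.9, 24.9 and 39.7 FPKM in HS. It was at 36.7, 29.8 and 57.2 FPKM in AOS and 48.6, 53.1 and 54.9 FPKM in control. All 12 libraries with diet and STZ were below all 3 control libraries, control 3 not being apart from the other controls here. The difference was −0.64 in HS_AOS, −0.86 in HS_AOS_FMT, −0.72 in HS_control_FMT and −0.69 in HS relative to the same control libraries (SE 0.192 each). The adjusted p-values were 0.091 for HS_AOS, 0.0565 for HS_AOS_FMT, 0.0538 for HS_control_FMT and 0.466 for HS, so none passed in these fits; under quantile normalization or with no filter, HS_AOS_FMT passed relative to control. In the thioredoxin system, Txn1 ranged between 139.1 and 256.2 FPKM, Txnrd1, its reductase, between 33.1 and 49 FPKM, and Srxn1, which repairs over-oxidised peroxiredoxins, between 13.1 and 41.4 FPKM with control 3 at the top.

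**Figure D3:**
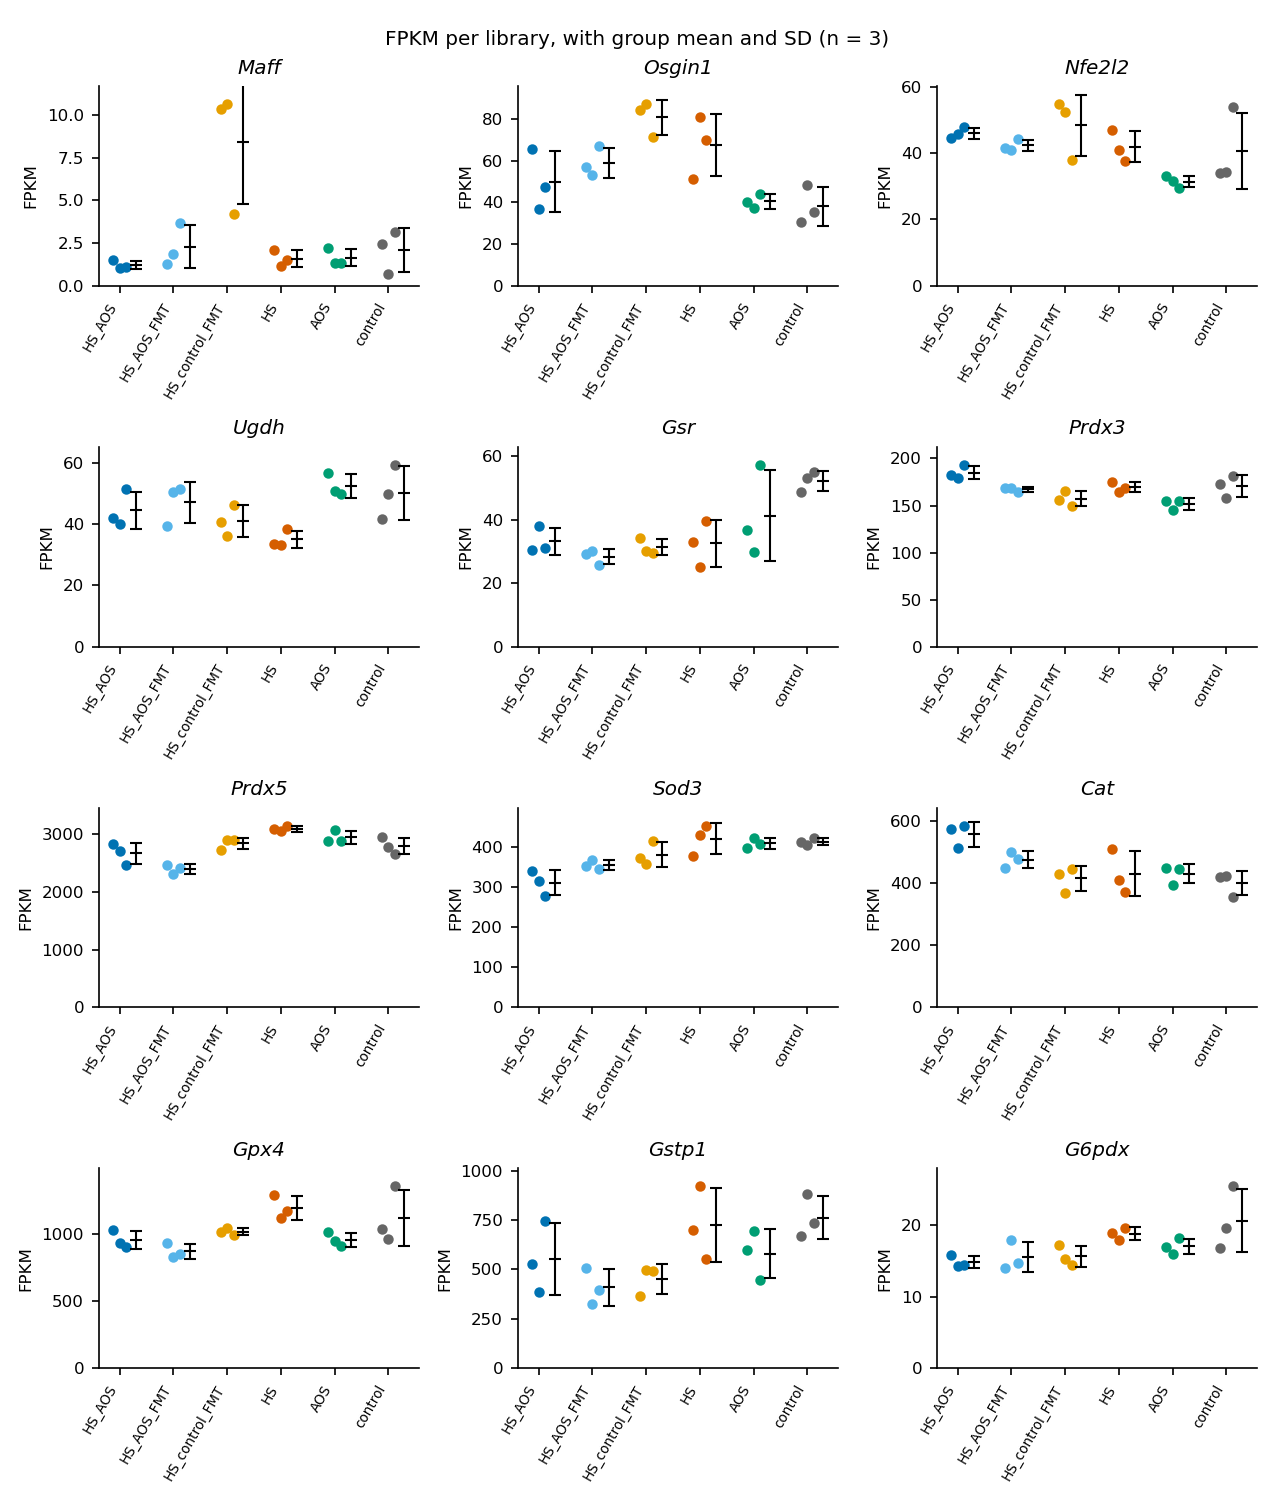
FPKM of 12 members in each of the 18 libraries, with the 6 groups along the horizontal axis; points are libraries, and the bar beside them is the group mean with its SD (n = 3). Maff is at 4.21 to 10.6 FPKM in HS_control_FMT and at most 3.69 FPKM elsewhere, and Gsr is lower in all 4 groups with diet and STZ than in control. Mean Gsr is also lower in AOS (41.2 FPKM) than in control (52.2 FPKM), but the libraries of these groups overlap.

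Among the peroxiredoxins, which reduce peroxides with thioredoxin, Prdx5 (chr19:6906697-6910106) fell in the mice with the AOS transplant. It was at 2462, 2306 and 2417 FPKM in HS_AOS_FMT, against 3083, 3046 and 3146 FPKM in HS. It was at 2829, 2709 and 2470 FPKM in HS_AOS, 2722, 2896 and 2898 FPKM in HS_control_FMT, 2887, 3071 and 2874 FPKM in AOS and 2945, 2768 and 2664 FPKM in control. The HS_AOS_FMT libraries were the lowest 3 of the 18, and the HS libraries did not overlap with those of HS_AOS, HS_AOS_FMT, HS_control_FMT or control. Prdx5 fell by 0.37 in HS_AOS_FMT relative to HS (SE 0.077, adjusted p = 0.041). Its transcript lies at the 84th percentile of GC content, and with the GC and length trend removed the difference was −0.22 with an adjusted p of 0.422. Without the 3 adrenal-rich libraries the adjusted p was 0.188. The call was also lost when any 1 of 12 libraries was left out (AOS 1, 2 and 3, HS 1, 2 and 3, HS_AOS 2, HS_AOS_FMT 1, 2 and 3, HS_control_FMT 1 and 2), with adjusted p between 0.0546 and 0.163. Prdx3, the peroxiredoxin of the mitochondrial matrix, was at 182.4, 179.7 and 193.2 FPKM in HS_AOS and 175.1, 164.4 and 168.6 FPKM in HS, but at 155.2, 144.8 and 155 FPKM in AOS and 173.2, 158.3 and 181.7 FPKM in control. It was at 168.8, 168.2 and 164.3 FPKM in HS_AOS_FMT and 156.1, 165.9 and 150 FPKM in HS_control_FMT. The HS_AOS libraries were thus all above HS, and the AOS libraries all below control. Prdx1, Prdx2 and Prdx6 ranged between 724.8 and 1145 FPKM, between 151.3 and 216 FPKM and between 107.4 and 130.6 FPKM, and passed in no comparison. Prdx2 averaged 158 ± 9.48 FPKM in HS_AOS_FMT and 195 ± 3.43 FPKM in HS (SD, n = 3 each), without overlap, a difference of −0.31 (SE 0.0898, adjusted p = 0.0979).

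Of the superoxide dismutases, Sod3 (chr5:52363804-52369738), the extracellular enzyme bound to vessel walls and matrix, fell in HS mice given AOS. It was at 340.6, 314.8 and 277.9 FPKM in HS_AOS, against 378.4, 430.5 and 453.5 FPKM in HS and 412.8, 405.1 and 423.2 FPKM in control. It was at 351.7, 368.2 and 345 FPKM in HS_AOS_FMT, 372.1, 357.3 and 415.1 FPKM in HS_control_FMT and 396.7, 423.4 and 407 FPKM in AOS. The HS_AOS libraries were the lowest 3 of the 18. Sod3 fell in HS_AOS by 0.44 relative to HS (SE 0.0891, adjusted p = 0.0294) and by 0.41 relative to control (SE 0.0891, adjusted p = 0.0269). The first call was lost without HS 2, HS 3, HS_AOS 2 or HS_AOS 3 (adjusted p 0.0715 to 0.153) and the second without HS_AOS 2, HS_AOS 3, control 1 or control 2 (0.0514 to 0.0982). With the GC and length trend removed the differences were −0.41 (adjusted p = 0.107) and −0.40 (0.0693), and without the 3 adrenal-rich libraries the first had an adjusted p of 0.102. Sod1 ranged between 984.9 and 1475 FPKM and Sod2, the mitochondrial enzyme, between 95 and 115.2 FPKM, and neither passed.

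Catalase, which breaks down hydrogen peroxide in peroxisomes, rose in HS_AOS relative to control. Cat (chr2:103453904-103485153) was at 572.8, 511 and 584.4 FPKM in HS_AOS, against 420.1, 423.1 and 354.2 FPKM in control. It was at 447.5, 500.6 and 478.5 FPKM in HS_AOS_FMT, 430.5, 368.9 and 445.7 FPKM in HS_control_FMT, 509.7, 408.8 and 369.7 FPKM in HS and 447.2, 394 and 446.4 FPKM in AOS. The HS_AOS libraries were the highest 3 of the 18, though HS_AOS 2 and HS 1 nearly met. Cat rose in HS_AOS relative to control by 0.48 (SE 0.119, adjusted p = 0.0443), and the difference from HS was 0.38 (SE 0.119, adjusted p = 0.0927). Relative to control the call was lost when any 1 of 14 libraries was left out (AOS 1, 2 and 3, HS 2, HS_AOS 1, 2 and 3, HS_AOS_FMT 1, 2 and 3, HS_control_FMT 1, control 1, 2 and 3), with adjusted p between 0.0548 and 0.139. It was also lost without the 3 adrenal-rich libraries (difference 0.40, adjusted p = 0.0628) and with the GC and length trend removed (0.49, adjusted p = 0.11). Gpx4 was at 1033, 937.2 and 902.6 FPKM in HS_AOS, 932.7, 829.6 and 852.5 FPKM in HS_AOS_FMT and 1017, 1048 and 991.6 FPKM in HS_control_FMT, against 1293, 1119 and 1171 FPKM in HS. It was at 1012, 952.2 and 907.9 FPKM in AOS and 1037, 964.4 and 1356 FPKM in control. Every HS library was above all 9 libraries of the other groups with diet and STZ. The difference was −0.32 in HS_AOS, −0.45 in HS_AOS_FMT and −0.23 in HS_control_FMT relative to the same HS libraries (SE 0.111 each), with adjusted p of 0.129 in HS_AOS, 0.0592 in HS_AOS_FMT and 0.347 in HS_control_FMT. Gpx4 transcripts are at the 96th percentile of GC content, and with the GC and length trend removed the same differences were 0.04, −0.16 and −0.03, so that the first changed sign. Gpx1 averaged 1780 ± 162 FPKM in HS_AOS and 2270 ± 135 FPKM in HS (SD, n = 3 each), without overlap, a difference of −0.35 (SE 0.103, adjusted p = 0.0816). Gpx3 averaged 24700 ± 5170 FPKM in HS_AOS_FMT and 34200 ± 1190 FPKM in HS (SD, n = 3 each), also without overlap, a difference of −0.49 (SE 0.189, adjusted p = 0.186). Gpx1 and Gpx3 transcripts are also rich in GC, at the 87th and 82nd percentile.

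The glutathione transferases, which couple glutathione to electrophiles, varied widely within the groups. Gstp1, the pi class enzyme, was at 527.4, 386.3 and 746.1 FPKM in HS_AOS, 509.6, 325.9 and 394.3 FPKM in HS_AOS_FMT and 366, 498.9 and 491 FPKM in HS_control_FMT. It was at 701.3, 920.4 and 550.9 FPKM in HS, 597.6, 693.7 and 446.6 FPKM in AOS and 668, 880 and 737.6 FPKM in control. The HS_AOS_FMT and HS_control_FMT libraries were all below those of HS and of control. Relative to HS the difference was −0.81 in HS_AOS_FMT (SE 0.251, adjusted p = 0.115) and −0.66 in HS_control_FMT (SE 0.251, adjusted p = 0.235). Gstp1 transcripts lie at the 81st percentile of GC content. With the GC and length trend removed the same differences were −0.56 (adjusted p = 0.452) and −0.49 (adjusted p = 0.483). Gstm1, the main mu class enzyme, averaged 325 ± 92.5 FPKM in HS_AOS and 578 ± 99.3 FPKM in HS (SD, n = 3 each), a difference of −0.86 (SE 0.251, adjusted p = 0.0812) between groups that did not overlap. All 7 tested transferases had a negative difference from HS in HS_AOS_FMT (−0.81 to −0.07) and in HS_control_FMT (−0.66 to −0.14), comparisons that share the HS libraries, and none of the 7 passed. Of all tested genes, 49.4% were lower than in HS in HS_AOS_FMT and 65.6% in HS_control_FMT. Gsta3 and Gsta4, of the alpha class, ranged between 17.6 and 81.4 FPKM and between 13 and 67.6 FPKM, Gstm2 between 23.8 and 83.2 FPKM and the microsomal Mgst1 between 32.5 and 142.2 FPKM, all with control 3 at the top. Of the NADPH-supplying enzymes of the pentose phosphate pathway, G6pdx, the first and rate-limiting one, was at 15.8, 14.3 and 14.4 FPKM in HS_AOS, 14, 18 and 14.8 FPKM in HS_AOS_FMT and 17.3, 15.3 and 14.5 FPKM in HS_control_FMT. It was at 18.9, 17.9 and 19.7 FPKM in HS, 17, 16 and 18.2 FPKM in AOS and 16.9, 19.7 and 25.4 FPKM in control. The HS_AOS libraries were all below those of HS and control, with differences of −0.32 from HS (SE 0.124, adjusted p = 0.163) and −0.43 from control (SE 0.124, adjusted p = 0.078). The difference from control passed under quantile normalization (−0.44, adjusted p = 0.0255) and with the GC and length trend removed (−0.38, adjusted p = 0.0369), and was −0.28 without control 3 (adjusted p = 0.128). Pgd, Tkt and Taldo1, later enzymes of that pathway, ranged between 42.3 and 72.5 FPKM, between 59.2 and 126.8 FPKM and between 192.3 and 238.1 FPKM.

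None of the 39 tested members passed in mice with diet and STZ alone. In HS against control, limma called 0 members, against 0.0646% of all genes, and 4 members had an unadjusted p under 0.05 (10.3%, against 6.63% of all genes). These were Osgin1, with a positive difference, and Gsr, Ugdh and Nqo1, with negative ones. Without control 3 the members at that level were 9, of which 7 were higher and 2 lower, when 13.6% of all genes were at that level. At any size, 25 of the 39 members were then higher and 14 lower, when 32.1% of all genes were lower. With all libraries 18 members were higher and 21 lower, when 49.5% of all genes were lower. The median difference of the members was −0.01, against 0.00 over all tested genes.

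In HS mice given AOS 1 member, Sod3, was called relative to HS, against 2.30% of all genes. At an unadjusted p under 0.05, 8 members were lower in HS_AOS than in HS (20.5%, against 9.52% of all genes) and 2 were higher, Cat and Ugdh (5.13%, against 10.8%). Groups did not overlap for 10 members that were lower (25.6%, against 11.1% of all genes) and 3 that were higher (7.69%, against 13.6%). The median difference was −0.04, against 0.01 over all genes. Under quantile normalization Cat was called as higher in place of Sod3. The members at an unadjusted p under 0.05 were then 5 lower and 4 higher, when 22.9% of all genes were at that level. With the GC and length trend removed no member was called, and 3 were lower and 3 higher at that level, against 14.6% of all genes. Without control 3 limma called 5 members (Sod3, Cat, Gpx1, Gpx4 and Gstm1), without HS 1 it called 2 (Sod3 and Cat) and without HS_AOS 1 it called 2 (Sod3 and Gstm1), while without HS 2, HS 3, HS_AOS 2 or HS_AOS 3 it called 0.

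With the AOS transplant 1 member, Prdx5, was called relative to HS, against 0.977% of all genes. Of the 39 members, 32 were lower in HS_AOS_FMT than in HS (82.1%), against 49.4% of all genes. The median was −0.17, against 0.00 over all genes. At an unadjusted p under 0.05, 8 were lower (20.5%, against 8.63% of all genes) and 1, Ugdh, was higher (2.56%, against 9.46%). Groups did not overlap for 10 lower members (25.6%, against 13.7%) and 1 higher member (2.56%, against 15.8%). Under quantile normalization 5 were lower and 3 higher at an unadjusted p under 0.05, a level reached by 19.9% of all genes. The median was then −0.10, against 0.01 over all genes. At any size, 26 of the 39 members were lower under quantile normalization, against 48.5% of all genes. With the GC and length trend removed 31 were lower (against 50.3%), and without the 3 adrenal-rich libraries 30 (against 53.3%). Without control 3 the members called were Prdx2, Prdx5 and Gpx4, and without HS_AOS 3 they were Prdx5 and Gpx4. All 3 superoxide dismutases, all 7 transferases and all 4 pentose phosphate enzymes tested were on the lower side, as they also were in HS_control_FMT against the same HS libraries. The part of red cell RNA, whose markers were lower in the HS_AOS_FMT libraries than in HS, was not tested. The comparison of HS_control_FMT with HS called Maff alone, against 0.751% of all genes, and had a median of −0.11 against −0.08 over all genes, with 27 of the 39 members lower (69.2%) against 65.6% of all genes.

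**Figure D4:**
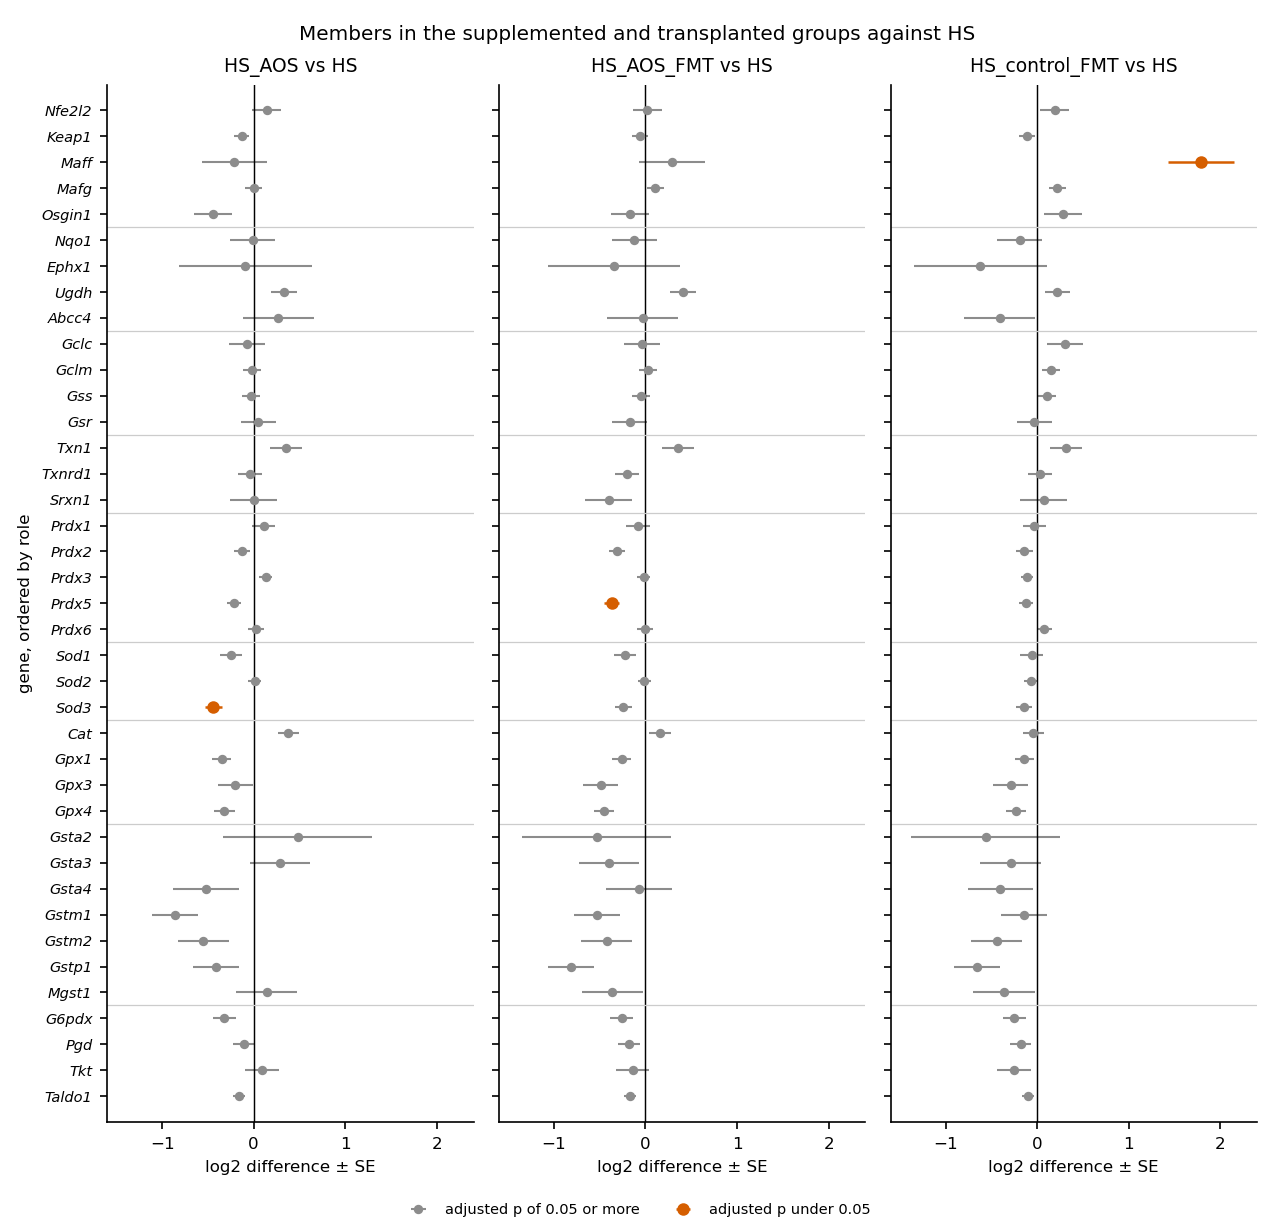
log2 difference from HS with its SE for the 39 tested members in HS_AOS, HS_AOS_FMT and HS_control_FMT, ordered by role; all 3 panels share the HS libraries. Orange points passed at an adjusted p under 0.05, which are Sod3 in HS_AOS, Prdx5 in HS_AOS_FMT and Maff in HS_control_FMT.

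Between the transplants, which asks whether the kind of transplant mattered, Maff was the single member called, against 3.99% of all genes. Prdx5 averaged 2390 ± 79.9 FPKM in HS_AOS_FMT and 2840 ± 101 FPKM in HS_control_FMT (SD, n = 3 each), without overlap, a difference of −0.25 (SE 0.077, adjusted p = 0.0882). Osgin1 averaged 58.9 ± 7.16 FPKM in HS_AOS_FMT and 80.9 ± 8.38 FPKM in HS_control_FMT (SD, n = 3 each), also without overlap, a difference of −0.45 (SE 0.207, adjusted p = 0.239). The median over members was −0.10, against 0.07 over all genes. Without control 3 Prdx5 was called beside Maff.

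AOS without diet or STZ called 0 members relative to control with limma, against 0.0646% of all genes, and 3 had an unadjusted p under 0.05 (7.69%, against 7.28%). These were Prdx3, Mgst1 and Gsta3, all with negative differences, and for the 2 transferases control 3 was the highest library. The median was −0.14, against −0.09 over all genes. Without control 3, 0 members were lower and 1 was higher at an unadjusted p under 0.05, a level reached by 3.24% of all genes. The median was then 0.00, against −0.01 over all genes. The test of whether the AOS difference itself differed between HS and control mice called 0 members, against 0.0727% of all genes, with 7 at an unadjusted p under 0.05 (17.9%, against 15.0%). Relative to control, HS_AOS called Sod3 and Cat (5.13%, against 2.87% of all genes) and HS_control_FMT called Osgin1 and Maff (5.13%, against 3.27%). Without control 3, HS_AOS called 4 relative to control (Ephx1, Abcc4 and Gsta2 as higher and Sod3 as lower). Without control 1, HS_control_FMT called 4 relative to control, Maff and Osgin1 as higher and Nqo1 and G6pdx as lower. For Nqo1 and G6pdx, control 3 was the highest library. HS_AOS_FMT called 0 members relative to control, against 0.460% of all genes, while at an unadjusted p under 0.05 there were 14 lower (35.9%, against 6.82%) and 2 higher, Osgin1 and Cat (5.13%, against 8.62%). Those numbers were 5 lower and 5 higher without control 3, when 20.7% of all genes were at that level. They were 5 lower and 4 higher without the 3 adrenal-rich libraries, when 14% of all genes were.

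Of 65 further genes of the same pathways, listed by role with earlier results of these data known, 60 were tested. Among them was Hmox1, the heme-degrading oxygenase and a textbook NRF2 target. It was at 198.9, 148.2 and 138.6 FPKM in HS_control_FMT, against 56.1, 56.6 and 66.6 FPKM in HS and 33.7, 38.7 and 39.3 FPKM in control. It was at 35.3, 30.6 and 34.1 FPKM in HS_AOS_FMT, 28.8, 38 and 47.2 FPKM in HS_AOS and 27.6, 30.5 and 33.6 FPKM in AOS. The HS_control_FMT libraries were above all others, as for Maff. Hmox1 rose in HS_control_FMT relative to HS by 1.41 (SE 0.159, adjusted p = 0.00206) and relative to control by 2.08 (SE 0.159, adjusted p = 2.42e-06), and it fell by 2.23 in HS_AOS_FMT relative to HS_control_FMT (SE 0.159, adjusted p = 5.31e-06). These 3 calls were kept under all 28 alternatives tried. Hmox1 also fell by 0.66 in HS_AOS (adjusted p = 0.0435) and by 0.82 in HS_AOS_FMT (adjusted p = 0.0369), both relative to HS. With single libraries left out, the call in HS_AOS was kept without HS 1, HS_control_FMT 1, HS_control_FMT 3, control 1 or control 3 and lost without any of the other 13 (adjusted p 0.0515 to 0.199). The call in HS_AOS_FMT was lost without AOS 1 or 2, HS 2 or 3, HS_AOS 2 or any HS_AOS_FMT library (0.0508 to 0.158). Both were lost without the 3 adrenal-rich libraries and with the GC and length trend removed.

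In HS_control_FMT relative to HS, 2 of the 60 rose and 0 fell (3.33% called, against 0.751% of all genes), the other riser being Chac1, which degrades glutathione and is induced by endoplasmic reticulum stress. Chac1 was at 5.12, 9.25 and 4.82 FPKM in HS_control_FMT, against 0.86, 2.82 and 2.11 FPKM in HS and 0.27, 0.99 and 1.31 FPKM in control, a difference of 1.35 from HS (SE 0.278, adjusted p = 0.0439). Of the 60, 3 rose in HS_control_FMT relative to control, Hmox1, Chac1 (1.99, adjusted p = 0.00161) and Sqstm1 (0.40, adjusted p = 0.0235), the autophagy receptor that binds KEAP1. Txnrd3, a thioredoxin reductase best known from testis, was at 5.6, 4.45 and 4.41 FPKM in HS_control_FMT, against 10.5, 8.48 and 8.3 FPKM in control, and fell by 0.79 (adjusted p = 0.00354), so that 4 of the 60 were called (6.67%, against 3.27% of all genes). In HS_AOS_FMT relative to HS_control_FMT, Hmox1, Chac1 (by 1.98, adjusted p = 0.00341) and Sqstm1 (by 0.44, adjusted p = 0.0178) fell, and Txnrd3 rose by 0.76 (adjusted p = 0.00567), again 4 of the 60 (6.67%, against 3.99% of all genes). These comparisons share the HS_control_FMT libraries. In HS_AOS_FMT relative to HS, 3 of the 60 fell (5%, against 0.977% of all genes), Hmox1, Glrx5 (by 0.43, adjusted p = 0.0484), a mitochondrial glutaredoxin, and Pgls (by 0.49, adjusted p = 0.0427), an enzyme of the pentose phosphate pathway. In HS_AOS, 2 rose relative to control, Chac2 (0.44, adjusted p = 0.0443) and Msra (0.30, adjusted p = 0.0461), which repairs oxidised methionine, and Gpx6 fell by 2.07 (adjusted p = 0.0318), 3 of the 60 in all (5%, against 2.87% of all genes). In HS_AOS relative to HS, Hmox1 alone was called (1.67%, against 2.30% of all genes), and none was called in HS relative to control, AOS relative to control or HS_AOS_FMT relative to control. Sqstm1 relative to control lost its call without any 1 HS_control_FMT library (adjusted p 0.0567 to 0.0846), and relative to HS_control_FMT without HS_AOS_FMT 2, HS_control_FMT 2 or HS_control_FMT 3 (0.0503 to 0.0956). Gpx6 lost it without HS_AOS 2, HS_AOS 3, control 2 or control 3 (0.0532 to 0.0994). With 1 library left out, Glrx5 kept its call only without HS_AOS 1, HS_AOS 3, control 2 or control 3, and Pgls only without HS_AOS 1, HS_AOS 3, HS_control_FMT 3 or a control library. Chac1 relative to HS kept it only without HS 2, HS_AOS 1, HS_AOS 3 or a control library. Chac2 kept it only without HS 1, HS_AOS_FMT 1, HS_control_FMT 1, HS_control_FMT 3 or control 2, and Msra only without HS 1 or control 3.

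One control library set much of the spread of the conjugating enzymes. Gsta2, an alpha class transferase, was at 367.7 FPKM in control 3, against 17.0 and 17.1 FPKM in control 1 and 2 and at most 76.1 FPKM in any other library, a ratio of 21.5. Ephx1 was 13.4 times, Abcc4 4.45 times, Gsta3 2.92 times, Gsta4 2.88 times, Mgst1 2.54 times, Nqo1 2.26 times and Srxn1 2.21 times the mean of control 1 and 2. Control 3 was the highest of the 18 libraries for 17 of the 39 members (43.6%, against 33.7% of all tested genes), and over 1.5 times the other controls for 13 (33.3%, against 21.2%). HS 3 and HS_AOS_FMT 2, the next libraries in summed adrenal markers, had Gsta2 at 31.5 and 25.6 FPKM and Ephx1 at 45.0 and 41.6 FPKM, within the range of the other libraries with diet and STZ. The part of adrenal tissue in the control 3 values was not tested. In Gsta2, HS_AOS was at 61.9, 48.6 and 65.9 FPKM, above control 1 and 2, and without control 3 it was called between these groups.

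**Figure D5:**
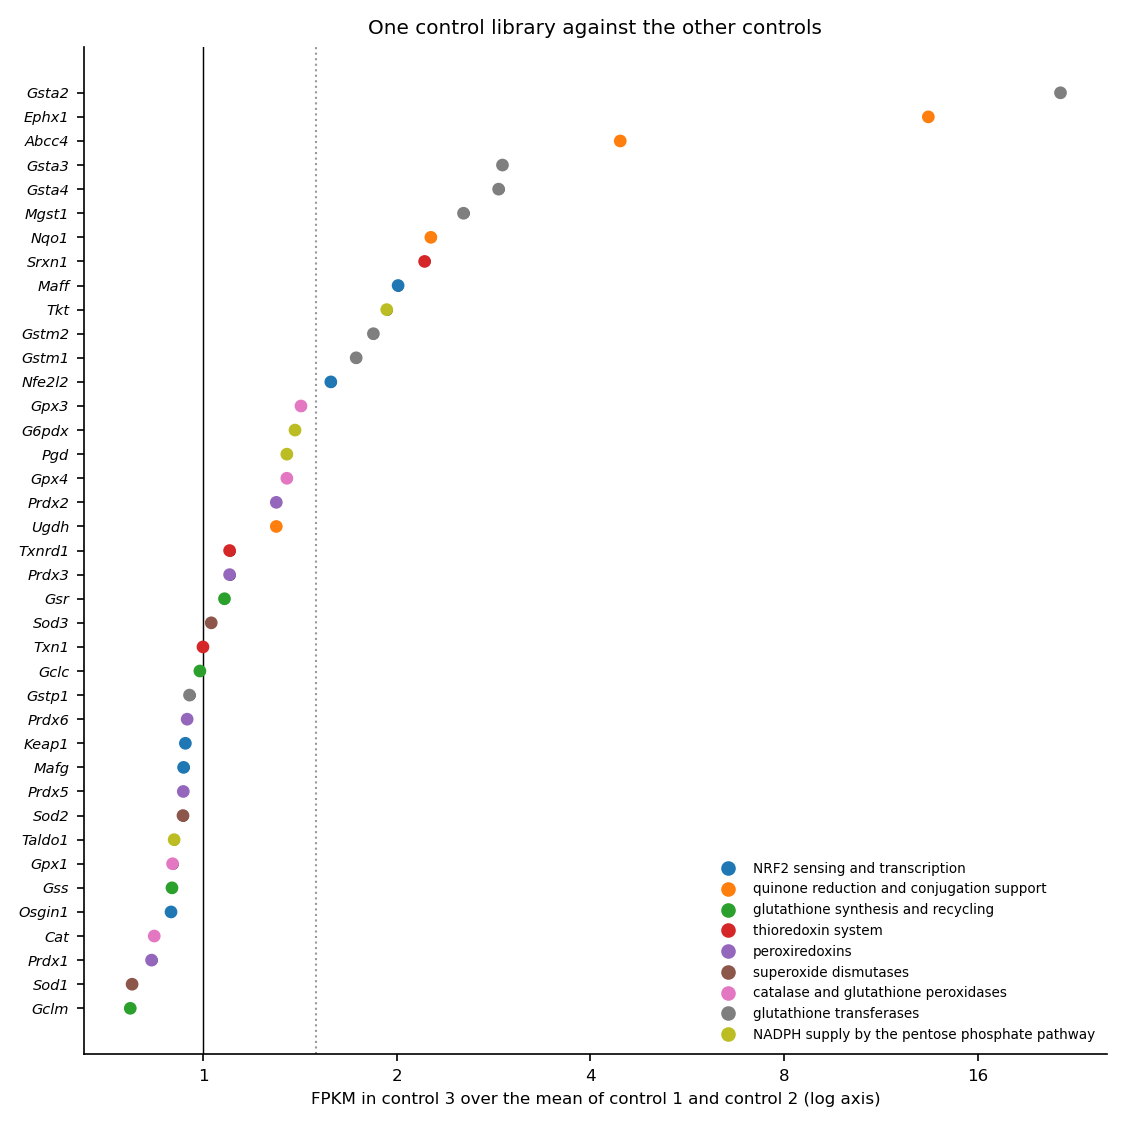
FPKM in control 3 over the mean of control 1 and control 2 for the 39 tested members, on a log axis, coloured by role; the solid line marks 1 and the dotted line 1.5. Gsta2 and Ephx1 stand far out at 21.5 and 13.4, and 13 members lie above the dotted line.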

How the data were processed

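The authors deposited 1 table with 1 FPKM value per gene symbol and sample, rounded to 2 decimals. The unit was read from the values, since sums of FPKM times transcript length varied by 0.93% between libraries and plain sums by 4.29% (coefficients of variation). The submitters' processing notes name Bowtie 0.12.2 and mm10. How the FPKM were computed, with which annotation and strandedness, is not given in the sources used here. Samples were grouped by their treatment labels, 3 per group. Members and lists were chosen with earlier results of these data known. The 12385 genes that reached 1 FPKM in 3 or more of the 18 samples were tested (7160 were not) on log2(FPKM + 1) in limma 3.58.1 (R 4.3.3, trend and robust options), with 1 mean per group, 12 residual degrees of freedom and Benjamini-Hochberg adjustment per comparison at 0.05. The fit was tested on simulated data. Tables and figures used Python 3.11.15, pandas 2.3.3 and matplotlib 3.10.9. Members that passed in any comparison, and those with the smallest p over the 6 groups up to 12 in all, are given per sample, and other genes of the pathway where they passed in a pairwise comparison. Gene positions and promoter windows are from RefSeq on GRCm38.p6, GC content and transcript length from GENCODE on GRCm38. The labels state no pairing of samples. Correlations of deviations between same-numbered samples were all above 0.1 only in HS against control (0.19, 0.24 and 0.12), where the block also called 0 members. Differently numbered samples were not compared in this way, so these values do not show that samples pair. The alternatives were quantile normalization, no filter, at least 5 FPKM, a pseudocount of 0.1, the replicate block, the compared groups alone, no trend or robust option, GC and length trends removed by splines (with and without the block), each library left out, and the 3 adrenal-rich libraries left out.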

Additional observations from a re-analysis of the deposited data

Results flagged for a closer look

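Prdx3 was flagged because AOS went opposite ways in the 2 backgrounds. All 3 HS_AOS libraries were above all 3 HS libraries (182.4, 179.7 and 193.2 FPKM against 175.1, 164.4 and 168.6 FPKM), and all 3 AOS libraries were below all 3 control libraries (155.2, 144.8 and 155 FPKM against 173.2, 158.3 and 181.7 FPKM). The AOS difference in HS minus that in control was 0.30 on the log2 scale (SE 0.0966), with a p of 0.0074 in limma and an adjusted p of 0.214, so it did not pass. With the GC and length trend removed, Prdx3 differed by 0.15 in HS_AOS against HS (adjusted p = 0.302). In AOS against control the difference was then only −0.07 (adjusted p = 0.805). Under quantile normalization the same differences were 0.14 and −0.15.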

How the results depend on the processing

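No member that was called in a pairwise comparison changed direction under any alternative, and its 8 calls were kept in 137 and lost in 84 of 221 values. With the compared groups alone in the fit, 0 members were called in every pairwise comparison. With the replicate block 0 were called in HS_AOS, HS_AOS_FMT and HS_control_FMT against HS, HS_AOS_FMT against HS_control_FMT and HS_AOS against control, while Maff and Osgin1 kept their calls in HS_control_FMT against control. Correlations of deviations between same-numbered samples were −0.36 to 0.31 over all pairs, and all above 0.1 in HS against control only. Without the 3 adrenal-rich libraries 0 were called in the same 3 comparisons with HS and between the transplants, 1 in HS_control_FMT against control and 5 over the 6 groups. GC and length removal gave 0 for HS_AOS and HS_AOS_FMT against HS, 1 (G6pdx) for HS_AOS against control and 5 over the 6 groups, and with the block 0 in those 3 comparisons. At 5 FPKM, where Maff is not tested, the counts were 2 in HS_AOS_FMT against HS, 1 in HS_control_FMT against control and 0 in HS_control_FMT against HS and between the transplants. A pseudocount of 0.1 gave 0 in these last 2, and no filter gave 0 in HS_control_FMT against HS. Gsr gave 1 in HS_AOS_FMT against control with no filter or with quantile normalization. Without the trend and robust options HS_AOS against control had 1. With each library left out the counts ran from 0 to 5 in HS_AOS, 0 to 3 in HS_AOS_FMT and 0 to 1 in HS_control_FMT against HS, 0 to 2 between the transplants, 0 to 4 in HS_AOS, 0 to 1 in HS_AOS_FMT and 1 to 4 in HS_control_FMT against control, and 0 to 13 over the 6 groups. HS against control, AOS against control and the test of the AOS difference stayed at 0. Quantile normalization moved the median of all genes in AOS against control to 0.01, where it was −0.09 before. Depth per library is unknown, and the cause of the changed counts was not tested.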
